A study of Mus musculus with 12 samples.

Results

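Dorsal root ganglia were compared between mice that shared a genotype and differed in the injected agent. The mice of all 4 libraries were adult males of the strain labelled C57Bl6 and carried Rosa26Cre ERT2, a Cre recombinase at the Rosa26 locus that tamoxifen activates, with 2 floxed Prdm12 alleles (Fl/Fl). Libraries iKO 5 and iKO 6 came from mice injected with tamoxifen, and control 5 and control 6 from mice injected with corn oil, the usual carrier of tamoxifen. These 4 libraries were chosen by genotype and agent from the 12 of the series, which studied ganglia 1 month after tamoxifen injection. The other 8 serve here as a second comparison that shares no library with the first: iKO 1 to 4 (Rosa26Cre ERT2; Fl/Fl, tamoxifen; iKO 1 to 3 female) against 4 tamoxifen-injected controls. Of those, control 1 was Rosa26Cre ERT2; Fl/+, controls 2 and 3 lacked Cre (+/+; Fl/+), control 4 was Rosa26Cre ERT2; +/+, and controls 1 and 2 were female. Rosa26 drives Cre in nearly all cell types, so deletion was not restricted to neurons, and which Prdm12 exons are floxed is not given by the labels. Within the corn oil comparison the effects of tamoxifen and of Prdm12 deletion cannot be told apart, since every mouse with the one had the other. It is not stated that each library is 1 animal, so p-values cover the spread among these libraries, which may be technical.

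Dorsal root ganglia hold the cell bodies of the sensory neurons that report pain, itch, temperature and touch from the body, together with the glia, vessels and connective tissue around them. Prdm12 encodes a zinc finger protein of the PRDM family that is found in pain-sensing neurons (nociceptors) and is needed for them to form in the embryo. In the adult it remains switched on in nociceptors. The comparison describes which genes differ in whole ganglia between tamoxifen-injected and corn oil-injected adults with floxed Prdm12 alleles.

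The 4 libraries held 13943784 (control 5), 16153347 (control 6), 16128401 (iKO 5) and 16414242 (iKO 6) counts. Sensory neuron genes marked all of them, with 14 of 14 listed genes measured and a summed level of 12246 and 11144 CPM (counts scaled to a common library size) in controls 5 and 6 and 12181 and 11887 in iKO 5 and 6. Some libraries stood apart in markers of other cells. Control 6 held 674 CPM of 12 skeletal muscle genes, where the other 11 libraries held 74.0 to 206. In iKO 1, outside the corn oil comparison but within the fit, 19 macrophage genes summed to 884 CPM, where the other 11 libraries had 298 to 527. Values are therefore given per library, and the results without these libraries stand beside the calls they touch.

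Prdm12 counts were lower in both iKO libraries than in either corn oil control. The gene was at 147 CPM in control 5, 64.5 CPM in control 6, 25.4 CPM in iKO 5 and 22.9 CPM in iKO 6. The groups did not overlap, but the controls differed from each other more than the 2 iKO libraries did. The mean of the iKO libraries was 22.8% of the control mean, a log2 fold change of -2.13 ± 0.33 (SE) that did not pass the threshold of 0.05 (Benjamini-Hochberg adjusted p = 0.128, edgeR quasi-likelihood). Without control 6 it was -2.60 and without control 5 it was -1.42, the control side then being 1 library assumed to vary like the rest. Tamoxifen-injected controls 1 to 4 ran from 107 to 139 CPM and iKO 1 to 4 from 18.6 to 25.3 CPM, so control 6 lay below each of the other 5 controls. Counts that remain in iKO libraries may come from exons outside the floxed part. In bulk tissue, fewer cells of a type and less RNA per cell cannot be told apart. Gm13425, which runs antisense to Prdm12 over 8.09% of its exon bases and makes no known protein, was at 96.9, 90.9, 65.0 and 63.2 CPM in the same order of libraries, and the reads carry no strand.

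**Figure D1:**
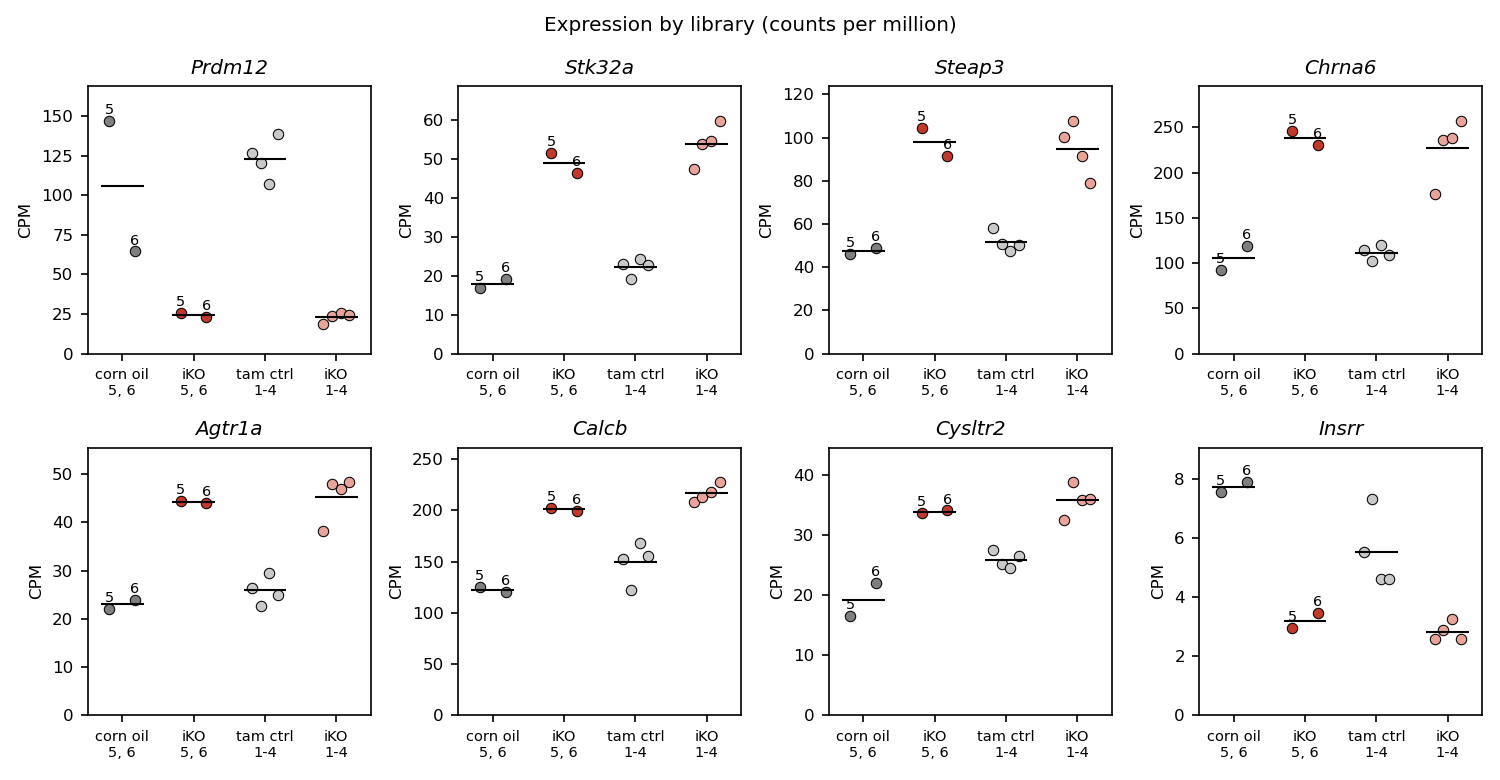
Level of 8 genes in CPM (vertical axes, from 0) in each library, with group means as lines. Corn oil controls and iKO libraries 5 and 6 are numbered, and tamoxifen-injected controls 1 to 4 and iKO 1 to 4 are in paler shades. Control 6 sits at 64.5 CPM for Prdm12, between control 5 at 147 and the iKO libraries at 22.9 and 25.4. It is also displaced toward the iKO libraries for Chrna6 (118 against 92.4 CPM in control 5) and Cysltr2 (22.0 against 16.6 CPM). For Stk32a, Steap3, Agtr1a, Calcb and Insrr it lies beside control 5.

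In these 4 libraries 4 genes rose and 0 fell among 17435 tested (0.0229%), at an adjusted p under 0.05 by edgeR's quasi-likelihood test, while 772 (4.43%) had an unadjusted p under 0.05 and DESeq2 called 28 (20 higher and 8 lower, Prdm12 among the lower). Without iKO 1 the count was 68 (36 higher and 32 lower), and without control 5 or iKO 5 it was 1. Stk32a encodes a serine/threonine kinase. It was at 16.8 and 19.2 CPM in controls 5 and 6 and at 51.6 and 46.5 CPM in iKO 5 and 6, a 2.72-fold rise (log2 fold change 1.44 ± 0.12 SE, Benjamini-Hochberg adjusted p = 0.00047, edgeR quasi-likelihood). Steap3, a ferrireductase that acts on iron in endosomes, rose from 46.0 and 48.7 CPM to 104 and 91.4 CPM (1.05 ± 0.11 SE on the log2 scale, Benjamini-Hochberg adjusted p = 0.00468, edgeR quasi-likelihood). For both genes the gap between the groups was larger than the gap within either group.

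Chrna6, the α6 subunit of nicotinic acetylcholine receptors, was at 92.4 CPM in control 5 and 118 CPM in control 6, against 246 CPM in iKO 5 and 231 CPM in iKO 6. Its log2 fold change was 1.18 ± 0.16 (SE). Agtr1a, the type 1 receptor for angiotensin II and a gene of the nonpeptidergic nociceptor list, was at 22.1 and 23.9 CPM in the controls and at 44.5 and 44.1 CPM in the iKO libraries. Its log2 fold change was 0.95 ± 0.13 (SE), and both genes had a Benjamini-Hochberg adjusted p of 0.0272 (edgeR quasi-likelihood). The fitted rise was 2.26-fold for Chrna6 and 1.93-fold for Agtr1a, and the groups did not overlap. The call of Stk32a held on leaving out any of the 12 libraries in turn. That of Steap3 was lost without control 5 (adjusted p = 0.14) or iKO 5 (0.131), by edgeR's quasi-likelihood test. That of Chrna6 was lost without control 2, 3, 4 or 5 or iKO 4, 5 or 6, with adjusted p from 0.0531 to 0.334 by the same edgeR test, and that of Agtr1a without control 3, 5 or 6 or iKO 4, 5 or 6, with adjusted p from 0.0628 to 0.334 by the same edgeR test. Over the 12 refits the log2 fold change ran from 0.95 to 1.14 for Steap3, from 1.01 to 1.37 for Chrna6 and from 0.89 to 1.01 for Agtr1a.

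The next 6 higher genes by p-value did not pass the threshold. Calcb, which encodes the neuropeptide β-CGRP, was at 125 and 120 CPM in controls 5 and 6 and 202 and 200 CPM in iKO 5 and 6 (log2 fold change 0.71 ± 0.11 SE, Benjamini-Hochberg adjusted p = 0.0587, edgeR quasi-likelihood). Calca, which encodes α-CGRP and was named outside the rule, was at 1180 and 1295 CPM against 1271 and 1321 CPM (0.07 ± 0.11 SE). The groups were apart for Calcb and overlapped for Calca. The genes are close paralogs, so some reads may be shared. Cysltr2, a leukotriene receptor of itch neurons, was at 16.6 and 22.0 CPM against 33.7 and 34.1 CPM (0.81 ± 0.13 SE, Benjamini-Hochberg adjusted p = 0.0897, edgeR quasi-likelihood). Without control 6 its log2 fold change was 1.04, and without control 5 it was 0.63.

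Arid5a, an RNA-binding protein of the ARID family, was at 14.1 and 14.7 CPM in the controls and 23.5 and 27.4 CPM in the iKO libraries. Rgs9bp, which anchors the GTPase activator RGS9, was the least abundant of the 10 and had the highest fold change, at 1.09 and 1.60 CPM against 3.84 and 5.29 CPM (1.75 ± 0.28 SE on the log2 scale). St6galnac5, a sialyltransferase, was at 38.0 and 34.6 CPM against 63.8 and 59.6 CPM, with 1.80% of its exon bases opposite Pigk, and Cars, the cysteinyl-tRNA synthetase, at 28.0 and 30.8 CPM against 43.0 and 45.7 CPM. Each of these 4 genes had both iKO libraries above both controls, a condition of the choice that 18.4% of all tested genes met.

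Among lower genes none passed, and the 10 with the smallest p were Prdm12 and 9 others, among them ion channel, receptor and signalling genes. Insrr, a membrane kinase of the insulin receptor family, was at 7.55 and 7.88 CPM in controls 5 and 6 and at 2.96 and 3.44 CPM in iKO 5 and 6 (log2 fold change -1.27 ± 0.21 SE, Benjamini-Hochberg adjusted p = 0.0974, edgeR quasi-likelihood). Both iKO libraries lay well below both controls, which were close to each other. Grik1, which forms kainate receptors for glutamate and was the most abundant of the 10, was at 431 and 412 CPM against 258 and 289 CPM (-0.62 ± 0.12 SE). Kcnmb1, the β1 subunit of the BK potassium channel, was at 55.2 and 56.5 CPM against 33.4 and 31.8 CPM (-0.77 ± 0.14 SE). Creg2, a secreted glycoprotein gene, was at 33.1 and 27.5 CPM against 9.95 and 13.1 CPM (-1.39 ± 0.27 SE).

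The remaining members of that set had smaller or less certain differences. Gng2, a γ subunit of G proteins, was at 343 and 340 CPM against 249 and 255 CPM, and 20.4% of its exon bases lie opposite Gm48283. Ptk2b, the kinase PYK2, was at 30.2 and 29.5 CPM against 18.9 and 19.2 CPM, and Serpina3g, a serine protease inhibitor with close copies in the genome, at 47.1 and 46.5 CPM against 34.4 and 36.5 CPM. Tmprss11c, a transmembrane serine protease, was at 4.14 and 4.00 CPM against 1.89 and 1.91 CPM. Mrgprb5, a Mas-related receptor of nociceptors whose family also holds close copies, was at 9.80 and 13.9 CPM against 6.86 and 6.39 CPM (-0.84 ± 0.18 SE). In all 10 both iKO libraries lay below both controls, a condition of the choice that 19.5% of all tested genes met.

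**Figure D2:**
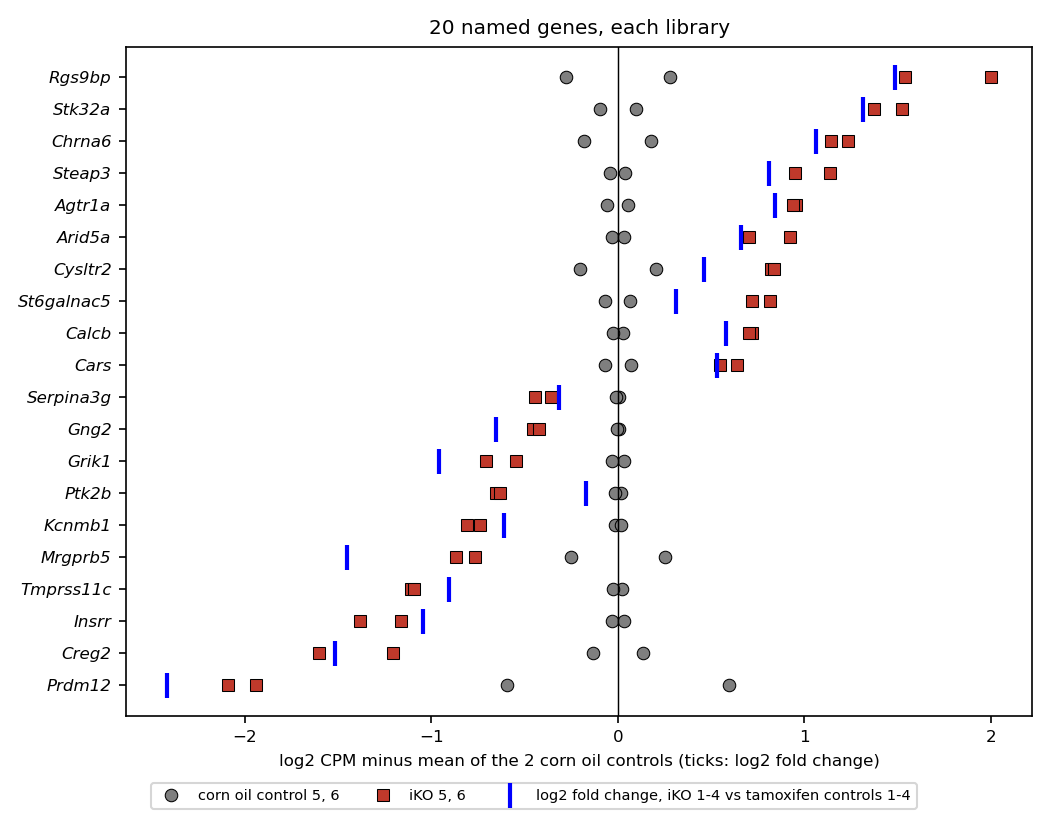
The 20 named genes in the corn oil comparison, each library as log2 CPM minus the mean of corn oil controls 5 and 6 (horizontal axis), with corn oil controls as grey circles and iKO 5 and 6 as red squares. Blue ticks mark the log2 fold change of iKO 1 to 4 against tamoxifen-injected controls 1 to 4, which is 0.31 for St6galnac5 and -0.17 for Ptk2b, short of the squares, and -1.45 for Mrgprb5 and -0.96 for Grik1, beyond them.

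The direction of these differences was compared with that in the other 8 libraries. In iKO 1 to 4 against tamoxifen-injected controls, 93 genes passed (0.533% of those tested), 43 higher and 50 lower, and 1703 (9.77%) had an unadjusted p under 0.05. Without iKO 1 the count was 383, and without iKO 4 it was 22. Of these, 91 (97.8%) had the same sign in the corn oil comparison, where 53.8% of all tested genes did. In 88 (94.6%), both of iKO 5 and 6 lay past both corn oil controls on that side, against 21.5% of all tested genes. They comprised 40 of the 43 higher and 48 of the 50 lower genes. The fit that called the 93 took its spread from all 12 libraries. A low spread in controls 5 and 6 and iKO 5 and 6 could thus favour both a call and groups apart. The shares over all tested genes were not matched for spread or level. The median log2 fold change in the corn oil comparison was 0.70 for the higher and -0.46 for the lower genes, where it was 0.78 and -0.72 in the libraries that chose them. Across the 93 genes the 2 sets of log2 fold changes had a Pearson's r of 0.85 and a Spearman's rho of 0.88, as a description, since the genes were chosen for their size in 1 set and are not independent. Over all 17435 genes r was 0.17.

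Genes whose level in iKO 5 and 6 matched that pattern had several roles. Drd1, a dopamine receptor, was at 0.290 and 0.369 CPM in controls 5 and 6 and at 1.64 and 1.91 CPM in iKO 5 and 6 (log2 fold change 2.39 ± 0.40 SE, 1.95 in replicates 1 to 4). Skor2, a transcriptional corepressor of the SKI family, was at 11.8 and 8.99 CPM against 24.8 and 21.6 CPM (1.16 ± 0.23 SE, 1.21 in replicates 1 to 4), and Lmo1, a LIM-only transcriptional cofactor, at 12.3 and 11.5 CPM against 19.95 and 20.7 CPM (0.77 ± 0.14 SE, 0.81 in replicates 1 to 4). Cyp26b1, which breaks down retinoic acid, was at 6.61 and 10.1 CPM against 13.3 and 20.4 CPM, and Atp6ap1l at 5.45 and 6.77 CPM against 11.96 and 11.4 CPM. Among the lower genes, A3galt2, a galactosyltransferase, was at 66.9 and 62.3 CPM against 44.1 and 44.8 CPM, and Smyd3, a lysine methyltransferase, at 49.3 and 48.5 CPM against 37.5 and 40.3 CPM. None of these 7 passed in the corn oil comparison in the 12-library fit. In a fit of the 4 libraries alone, 5 did: Drd1, Skor2, Lmo1, Atp6ap1l and A3galt2.

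The exceptions were few. Spr-ps1, a pseudogene under 1 CPM, and Gm47283, an unnamed gene model, had the opposite sign. Nkx6-2, a homeobox factor, went the same way but overlapped, at 0.799 and 0.616 CPM in controls 5 and 6 and 0.755 and 1.41 CPM in iKO 5 and 6, and 12.9% of its exon bases lie opposite Inpp5a, which was at 21.0 CPM. B3gat1, a glucuronosyltransferase that makes the HNK-1 sugar epitope, was at 4.65 and 5.11 CPM against 5.41 and 5.10 CPM, with a log2 fold change of 0.11 where it was 0.98 in replicates 1 to 4 (unadjusted p of the difference 0.0042 by edgeR's quasi-likelihood test). Over all genes the difference between the 2 comparisons was called for 0 genes by edgeR's quasi-likelihood test and for 0 by DESeq2, with 572 (3.28%) at an unadjusted p under 0.05 by edgeR.

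**Figure D3:**
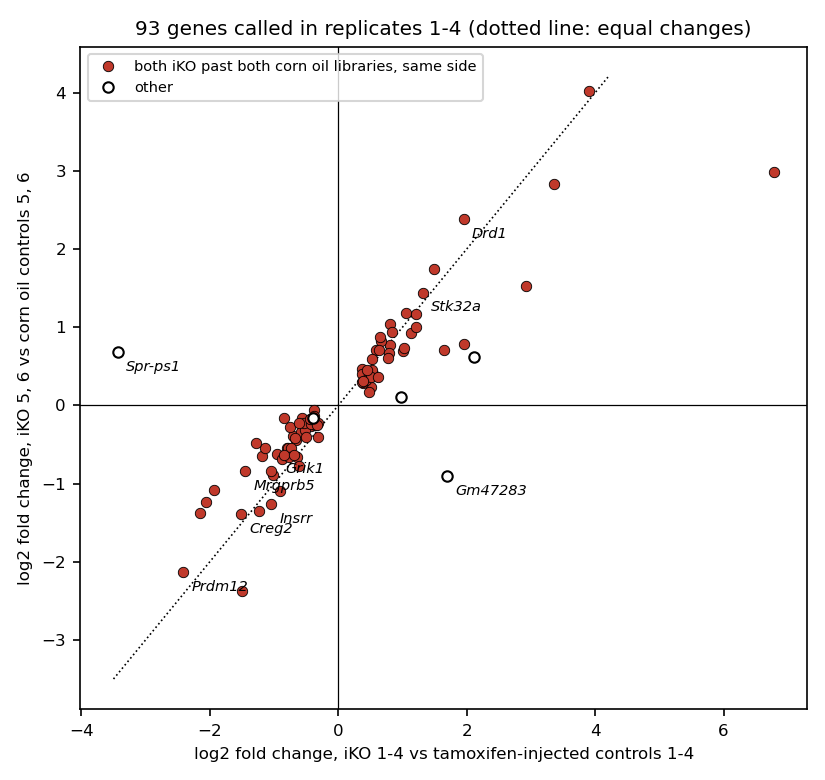
Log2 fold changes of the 93 genes called in iKO 1 to 4 against tamoxifen-injected controls 1 to 4 (horizontal axis) and in iKO 5 and 6 against corn oil controls 5 and 6 (vertical axis). Filled points are the 88 genes whose iKO 5 and 6 libraries lay past both corn oil controls on the same side, open points the other 5, and Spr-ps1 and Gm47283 fall in the quadrants of opposite sign.

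The position of control 6 between control 5 and the iKO libraries was compared between Prdm12 and the other genes. On the log2 scale its Prdm12 level lay 45.6% of the way from control 5 to the mean of iKO 5 and 6. For the 87 other genes called in replicates 1 to 4 whose groups were apart, its median position was 9.18% of the way, and some genes, such as Cyp26b1 at 6.61 CPM in control 5 and 10.1 CPM in control 6, were displaced as well. Counting all 92 such genes besides Prdm12, control 6 was on the iKO side of control 5 in 58 (63.0%), against 44.8% of all tested genes. iKO 5 lay past all 4 tamoxifen-injected controls on the iKO side in 91 of the 92, and iKO 6 likewise in 91. The corn oil controls also lay past those 4 controls toward the iKO side in 47 (control 5) and 54 (control 6) of them, and past the nearest of iKO 1 to 4 in 10 and 8. These 92 genes were chosen for the distance of those 4 controls from iKO 1 to 4. That choice by itself can place other controls nearer the iKO side. Shares over all tested genes were not computed for these positions, so no conclusion is drawn from the counts. Stk32a, Calcb and Insrr were near the level of control 5, at 19.2, 120 and 7.88 CPM in control 6 and 16.8, 125 and 7.55 CPM in control 5. Cysltr2 and Chrna6 were displaced toward the iKO side, at 22.0 and 118 CPM in control 6 and 16.6 and 92.4 CPM in control 5. Their iKO 5 and 6 values were 33.7 and 34.1 CPM for Cysltr2 and 246 and 231 CPM for Chrna6. The cause of the low Prdm12 value of control 6 was not tested.

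Genes of nociceptor classes were next compared by lists. Among 15 peptidergic nociceptor genes 0 were called, 6 had both iKO libraries above both controls and 3 below (18.4% and 19.5% of all tested genes), with a median log2 fold change of 0.08. Besides Calcb, those above included Cartpt, the CART peptide gene, at 16.3 and 11.1 CPM against 29.5 and 29.8 CPM, and Tac1, which encodes substance P, at 268 and 246 CPM against 299 and 352 CPM. Those below included Smr2 at 5.16 and 5.11 CPM against 2.96 and 2.64 CPM, and Chrna7, the α7 nicotinic subunit, at 65.8 and 67.8 CPM against 44.1 and 43.1 CPM.

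The 19 nonpeptidergic nociceptor genes held 1 called gene, Agtr1a, with 9 apart above and 5 apart below and a median of 0.01. Among all tested genes 18.4% were apart above and 19.5% below. Mrgpra3, a receptor for the pruritogen chloroquine, was at 19.97 and 21.1 CPM in controls 5 and 6 and at 30.6 and 31.0 CPM in iKO 5 and 6 (log2 fold change 0.58 ± 0.13 SE), where it was 0.12 in replicates 1 to 4. Otoa was at 11.3 and 10.2 CPM against 6.11 and 7.19 CPM (-0.69 ± 0.17 SE). Mrgprd, the β-alanine receptor that defines many of these neurons, overlapped at 220 and 204 CPM against 212 and 202 CPM. Members of this class therefore lay on both sides with its defining receptor near its control level.

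Itch neuron and neuropeptide genes lay mostly above the controls. All 10 itch neuron genes had positive log2 fold changes and 6 were apart above, with a median of 0.25 (-0.03 in replicates 1 to 4), and 0 were called. Of all tested genes 18.4% were apart above. Sst, which encodes somatostatin, was at 5.45 and 5.48 CPM against 11.4 and 8.97 CPM (0.90 ± 0.18 SE), and Nts, which encodes neurotensin, at 10.4 and 13.1 CPM against 15.2 and 23.1 CPM (0.71 ± 0.20 SE). Nppb, the natriuretic peptide that carries the itch signal to the spinal cord, was at 13.1 and 14.8 CPM against 13.5 and 18.9 CPM and overlapped. Of 20 listed neuropeptide genes 12 were measured, 11 with positive values and 7 apart above, with a median of 0.28 and 0 called, Penk being the exception at 16.05 and 6.34 CPM against 7.30 and 7.62 CPM. The lists share Sst, Nts and Nppb.

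Cold-sensing and touch neuron genes were measured in 3 lists with 0 called genes. The shares of all tested genes that were apart were 18.4% above and 19.5% below. Of 8 cold-sensing neuron genes 7 had negative values, 3 were apart below and 1 above, with a median of -0.33 and 0 called. Trpm8, the receptor for cold and menthol, was at 65.9 CPM in control 5, 40.3 CPM in control 6, 26.2 CPM in iKO 5 and 35.6 CPM in iKO 6. Its log2 fold change was -0.78 ± 0.36 (SE), and both iKO values lay below control 6. The 1 member above was Fam19a4, at 59.8 and 57.7 CPM against 69.3 and 83.2 CPM, which also marks C-fibre low-threshold mechanoreceptors, where 9 of 11 genes were positive and 5 apart above (median 0.21). Of 20 large-diameter neuron genes Ntrk3, the neurotrophin-3 receptor, had the smallest p, at 444 and 527 CPM against 736 and 673 CPM (0.54 ± 0.21 SE), while 14 of the 20 were negative, 5 apart below and 2 above, with a median of -0.07.

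Channel and receptor genes were measured in larger lists with members on both sides. Of 38 transduction and ligand-gated channel genes Chrna6 alone was called, and 12 were apart above and 12 below, against 18.4% and 19.5% of all tested genes. Chrnb3, the β3 nicotinic subunit that can assemble with α6, was at 18.3 and 18.8 CPM against 35.3 and 25.1 CPM (0.70 ± 0.26 SE). Both serotonin-gated channel subunits were lower, Htr3a at 154 and 134 CPM against 91.7 and 99.4 CPM (-0.59 ± 0.19 SE) and Htr3b at 21.6 and 22.5 CPM against 16.1 and 15.8 CPM (-0.47 ± 0.16 SE), where they had -0.03 and -0.02 in replicates 1 to 4. Trpa1, the irritant receptor, was at 91.6 and 115 CPM against 137 and 134 CPM. Of 48 nociception-related receptors Agtr1a alone was called, with 12 apart above and 11 below, and of 46 voltage-gated channels 0, with 14 above and 10 below. Kcnc4, a voltage-gated potassium channel, had the smallest p of these, at 63.4 and 60.2 CPM against 97.7 and 84.6 CPM.

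Among 19 measured axon injury genes 0 were called, 9 were apart above and 3 below (median 0.15), where 18.4% of all tested genes were apart above and 19.5% below. They included Jun, an AP-1 transcription factor with the antisense gene Junos, at 58.9 and 53.4 CPM against 82.5 and 75.7 CPM (0.50 ± 0.15 SE), and Tes, a focal adhesion gene, at 12.6 and 14.5 CPM against 17.4 and 18.3 CPM. Atf3, the most used marker of injured sensory neurons, was at 7.41 and 7.76 CPM against 8.31 and 8.17 CPM. Of 41 sensory neuron transcription factors 0 passed, 10 were apart above and 6 below, and of 26 listed regulators of other neural fates 6 were measured and 0 called.

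Erythroid genes, those of the red cell lineage, had lower values in iKO 5 and 6. Their summed level was 357 CPM in control 5, 324 CPM in control 6, 111 CPM in iKO 5 and 109 CPM in iKO 6. Of 9 measured genes 8 were apart below (19.5% of all tested genes) and all 9 had negative values, with a median log2 fold change of -1.96, and 0 passed the threshold (8 at an unadjusted p under 0.05). In replicates 1 to 4 the median was -0.14, with sums of 162 to 248 CPM in the controls and of 370, 117, 197 and 97.5 CPM in iKO 1 to 4.

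The α-globin genes Hba-a1 and Hba-a2 and the β-globin genes Hbb-bs and Hbb-bt are near-identical pairs, so reads may be split between copies. Hba-a1 was at 41.0 and 37.9 CPM in controls 5 and 6 and at 9.44 and 10.8 CPM in iKO 5 and 6 (log2 fold change -1.96 ± 0.58 SE), and Hbb-bs at 140 and 139 CPM against 43.4 and 44.3 CPM (-1.67 ± 0.57 SE). Alas2, the first enzyme of haem synthesis in red cell precursors, was at 23.4 and 22.0 CPM against 5.10 and 5.47 CPM (-2.10 ± 0.69 SE). Slc4a1, the band 3 anion exchanger of red cells, was at 54.3 and 33.4 CPM against 8.81 and 8.05 CPM. The fit takes its spread from all 12 libraries, and among the other 8 the erythroid sum ran from 97.5 to 370 CPM. The difference from replicates 1 to 4 had an unadjusted p of 0.0209 for Hba-a1 by edgeR's quasi-likelihood test and did not pass after adjustment.

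For erythroid genes too, fewer cells and less RNA per cell cannot be told apart in bulk tissue. As a description, the 250 bases upstream of the start sites of Hba-a1, Hbb-bs and Alas2 are shown. They come from RefSeq on GRCm38.p6 and read 5′ to 3′ on the gene's strand. Whether any motif in them bears on the lower values was not tested. Capitals mark matches, on either strand, to 3 motifs that do not overlap here. The motif of GATA factors was searched as AGATAA only, so other forms of it stay in lower case. The motif bound by Krüppel-like factors was searched as CCACACCC. The motif bound by factor NF-Y was searched as CCAAT. They are at chr11:32283422-32283671 (plus strand), chr7:103827929-103828178 (minus strand) and chrX:150547167-150547416 (plus strand).
Hba-a1: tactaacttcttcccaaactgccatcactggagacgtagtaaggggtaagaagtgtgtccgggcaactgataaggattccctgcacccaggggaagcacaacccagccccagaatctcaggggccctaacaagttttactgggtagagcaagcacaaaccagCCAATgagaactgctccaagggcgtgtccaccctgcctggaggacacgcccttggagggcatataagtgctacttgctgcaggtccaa
Hbb-bs: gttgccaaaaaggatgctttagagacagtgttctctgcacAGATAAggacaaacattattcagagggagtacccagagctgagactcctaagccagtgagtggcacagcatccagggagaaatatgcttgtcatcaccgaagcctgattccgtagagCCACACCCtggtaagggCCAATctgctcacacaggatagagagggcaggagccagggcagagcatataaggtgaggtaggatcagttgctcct
Alas2: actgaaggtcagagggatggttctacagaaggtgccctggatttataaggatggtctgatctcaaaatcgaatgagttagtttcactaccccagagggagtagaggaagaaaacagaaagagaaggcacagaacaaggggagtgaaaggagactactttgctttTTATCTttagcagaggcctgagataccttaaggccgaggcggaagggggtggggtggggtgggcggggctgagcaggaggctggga
In Hba-a1 the CCAAT box begins 88 bases before the start site. Hbb-bs holds AGATAA 210 bases before it, CCACACCC 93 and CCAAT 76 bases before it, and Alas2 holds AGATAA on its minus strand, read as TTATCT, from 86 bases before it. Among 32851 such windows 9.99% hold AGATAA, 3.2% CCACACCC and 33.8% CCAAT on either strand. Of erythroid windows searched but not shown, Epb42 held AGATAA, and Hba-a2 and Hbb-bt held CCAAT and neither other motif.

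Cell cycle genes also had lower values in iKO 5 and 6. All 16 had negative log2 fold changes and 14 were apart below (19.5% of all tested genes), with a median of -0.71 (-0.06 in replicates 1 to 4) and 0 called. Their sum was 114 CPM in control 5 and 111 CPM in control 6, against 68.3 and 70.3 CPM in iKO 5 and 6. Tamoxifen-injected controls 1 to 4 held 67.5 to 93.2 CPM, and iKO 1 to 4 held 127, 63.4, 72.8 and 61.8 CPM. Mki67, the proliferation marker Ki-67, was at 31.4 and 22.7 CPM against 10.4 and 7.87 CPM (-1.56 ± 0.65 SE), and Top2a, topoisomerase IIα, at 10.1 and 11.4 CPM against 4.66 and 3.07 CPM. Pcna, which is also used in DNA repair, was at 22.4 and 23.3 CPM against 19.6 and 25.0 CPM. For the erythroid and cell cycle sums the corn oil controls were the higher side, above all 4 tamoxifen-injected controls.

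When the 4 libraries were fitted alone, with 2 residual degrees of freedom and 16505 genes tested, 82 genes passed (0.497%), 38 higher and 44 lower. Of the 38 higher genes 37 had the same sign in replicates 1 to 4, and 23 had all of iKO 1 to 4 above all 4 tamoxifen-injected controls, against 3.43% of all tested genes. Of the 44 lower genes 35 had the same sign and 11 were apart below, against 2.93%. The median log2 fold change of the lower genes was -1.25 here and -0.20 in replicates 1 to 4, and that of the higher genes 0.61 and 0.49. Calcb, Insrr, Cysltr2, Grik1, Creg2 and Kcnmb1 passed in this fit and Prdm12 did not (Benjamini-Hochberg adjusted p = 0.622, edgeR quasi-likelihood). Among the lower genes were 7 of the 9 erythroid genes, with Mki67 and Top2a, and the red cell genes Hemgn, Rhag, Rhd and Car1, named after their values were seen. Hemgn was at 7.04 and 4.19 CPM in controls 5 and 6 and at 1.20 and 0.738 CPM in iKO 5 and 6.

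**Figure D4:**
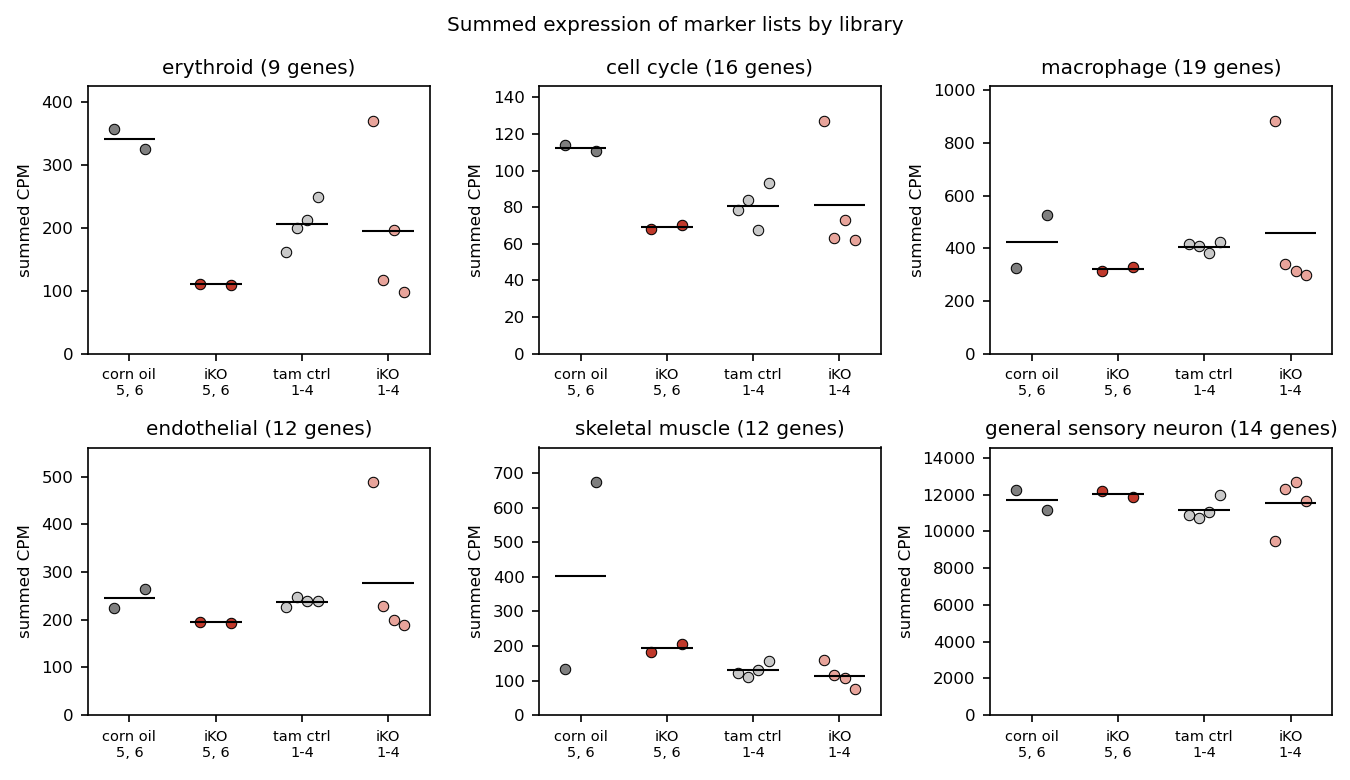
Summed CPM of 6 marker lists (vertical axes, from 0) in each library, with group means as lines. Erythroid and cell cycle sums are higher in both corn oil controls (357 and 324, 114 and 111) than in iKO 5 and 6 (111 and 109, 68.3 and 70.3), control 6 alone is high for skeletal muscle (674), and iKO 1 is high for macrophage genes (884).

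Markers of immune, vascular and connective tissue cells also leaned below the controls, and control 6 was the highest of the 4 libraries in each of these sums. Of all tested genes 19.5% were apart below. All 19 macrophage genes had negative values and 6 were apart below, but the sums were 323 CPM in control 5 and 527 CPM in control 6 against 314 and 330 CPM in iKO 5 and 6, so control 5 lay within the iKO range. The 7 MHC class II genes, all negative and 4 apart below, summed to 337 and 562 CPM against 315 and 312 CPM, and 14 fibroblast and meningeal genes, 13 negative and 4 apart below, to 3452 and 4465 CPM against 3077 and 3378 CPM. Of 12 endothelial genes all were negative and 9 apart below, at 225 and 264 CPM against 196 and 193 CPM. Neutrophil genes, 11 of 11 negative and 8 apart below, summed to 357 and 439 CPM against 316 and 226 CPM, and 12 lymphocyte genes, all negative and 7 apart below, to 22.2 and 38.7 CPM against 16.7 and 14.01 CPM. In the 12-library fit 0 members of these 6 lists passed by edgeR's quasi-likelihood test, and 1, Nkg7 of the lymphocyte list, had an unadjusted p under 0.05. With the 4 libraries alone Mpo of the neutrophil list, at 14.6 and 15.6 CPM against 9.13 and 6.27 CPM, and Vwf of the endothelial list, at 43.2 and 53.8 CPM against 32.7 and 31.7 CPM, passed. Their part in the lower erythroid and cell cycle values was not tested.

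Skeletal muscle, glial and metabolic lists gave 0 called genes. For comparison, 18.4% of all tested genes were apart above and 19.5% below. All 12 muscle genes had negative fitted values with 0 apart, at 132 CPM in control 5 and 674 CPM in control 6 against 182 and 206 CPM, with control 5 below both iKO libraries. Acta1, the muscle actin, was at 19.7 and 172 CPM against 37.8 and 41.4 CPM. Of 17 myelinating Schwann cell genes 2 were apart above and 1 below, and of 15 satellite glia genes 1 and 2. Cholesterol synthesis genes were positive in 25 of 27, with 8 apart above, a median of 0.08 and sums of 7110 and 6084 CPM against 7172 and 6651 CPM, which overlapped. Nuclear genes of oxidative phosphorylation were positive in 20 of 22, with 10 apart above and a median of 0.15. Their sums of 3414 and 3621 CPM against 3544 and 3881 CPM overlapped as well.

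Genes with the smallest p for a difference between the 2 comparisons held few of those above. Higher in the corn oil comparison relative to replicates 1 to 4 were Lypd1, Rab4b, Zfp882, an immunoglobulin light chain segment under 2 CPM (Igkv4-91) and Xist, which the all-male libraries held at under 1 CPM. Of Lypd1, 17.1% of the exon bases lie opposite Gpr39, and Rab4b shares 65.0% of its exon bases with Gm21983 on the same strand. Lower were Gm47283, Comp, Atp10d, Bub1b and Ptgds. Comp, a cartilage matrix protein, was at 13.6 and 16.6 CPM in controls 5 and 6 and at 9.06 and 11.3 CPM in iKO 5 and 6 (log2 fold change -0.57 ± 0.17 SE), where replicates 1 to 4 gave 0.45. Ptgds, a prostaglandin D2 synthase of the meninges, was at 153 and 178 CPM against 126 and 64.7 CPM (-0.79 ± 0.38 SE), and at 136 ± 91.7 CPM in tamoxifen-injected controls and 357 ± 179 CPM in iKO 1 to 4 (SD, n = 4 each). Of the genes with the strongest evidence in the corn oil comparison, Ptk2b and St6galnac5 had the smallest p for the difference (0.0118 and 0.0144, unadjusted, edgeR's quasi-likelihood test), and neither passed after adjustment.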

How the data were processed

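Poly(A) RNA of dorsal root ganglia was sequenced after TruSeq library preparation without strand information, per the labels' protocols. The submitters' processing notes name bcl2fastq 2.20.0.422, STAR 2.7.8a, featureCounts 2.0.1 and GRCm39. Annotation release and counting options: not given in the sources used here. Deposited by the authors were raw counts of 55416 genes per library, not normalized, with totals of 13943784 to 20377766. Symbols came from GENCODE M21 (GRCm38, names and overlaps only), for 94% of identifiers, which held 99.67% of counts. Groups came from the labels. Counts were scaled by TMM, filtered with filterByExpr and tested with edgeR 4.0.16's quasi-likelihood test (R 4.3.3) over 12 libraries in 4 groups with sex as a term, 7 residual degrees of freedom and 2-sided p-values adjusted by Benjamini-Hochberg over 17435 genes. The biological coefficient of variation was 12.7%, so the spread between libraries, not counting error, set the precision for most genes. CPM divide each count by the library total after TMM scaling. An exact permutation test of 2 against 2 libraries could not go below p = 0.333 and was not used. The procedure was tested on simulated counts. Of 685 entries in 37 lists 684 matched a gene.

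The text names Prdm12, Insrr, Calcb and Cysltr2, then the called genes and, up to 10 a side, the uncalled genes with the smallest p among those whose groups were apart and whose mean log2 CPM reached 0 (unnamed models, pseudogenes and sex-chromosome genes left out). It also names up to 4 called members of each list or the one with the smallest p, the 10 genes with the smallest p in replicates 1 to 4, and 5 genes a side for the difference. Other list members and genes named beside these were chosen after their values were seen. Libraries, lists and named genes were chosen with earlier results of these data known. Alternatives were DESeq2 1.42.0, RLE scaling, no low-count filter, no sex term, the 4 libraries alone, a replicate block and leaving out each library, and, added after seeing the data, the 7 male libraries alone. Values of a few list members are not reported here.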

Additional observations from a re-analysis of the deposited data

Results flagged for a closer look

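In 3 genes 1 library of a group of 4 lay far from the others, with a gap to its nearest neighbour above Dixon's 95% critical value, which chance exceeds in about 1 of 20 groups. Agtr1a was lowest in iKO 1, at 38.3 CPM. Creg2 was lowest in iKO 1, at 5.28 CPM. Grik1 was lowest in control 2, at 434 CPM. All 3 lie in replicates 1 to 4, outside the corn oil comparison, whose groups of 2 are too small for this rule.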

How the results depend on the processing

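The 4 calls of the corn oil comparison became 82 with the 4 libraries alone, 28 with DESeq2, 237 without the low-count filter, 65 with the 7 male libraries alone (chosen after seeing the data), 1 with a replicate block (the number as a term), and 1 to 68 on leaving out each library. The 93 calls of replicates 1 to 4 became 21 with the block, 188 with DESeq2, 400 without the filter, 33 with the 7 males and 22 to 383 on leaving out each library. The difference between the comparisons was called for 0 genes except without the filter (128). Prdm12 was called with DESeq2 (-2.13) and without the filter (-2.11), was -2.02 with the block, and ran from -2.60 to -1.42 on leaving out each library. Same-numbered libraries had deviations correlated at -0.08 to 0.18 in replicates 1 to 4 and at -0.018 in 5 and 6 (1 value for both). Not every pair was over 0.1 and the labels name nothing shared, so the numbers were not taken as pairs, and whether a day or batch was shared was not tested. With the block, Steap3, Chrna6 and Agtr1a lost their calls. Without control 6 the sign reversed for Actn3, Cidec and Des, whose values on leaving out each library ran from -2.10 to 0.75, -1.21 to 0.10 and -2.06 to 0.22, and without iKO 5 for Sox10 (-0.014 to 0.42). Of the other gene results under alternatives 1023 kept direction and side of the threshold, 103 gained a call and 18 lost one. Of the 93 genes called in replicates 1 to 4, the share with the same sign stayed between 97.8% and 98.9%. That list and its signs were held fixed, so alternatives that hardly alter the corn oil comparison could move this share little. Of the genes each alternative itself called in replicates 1 to 4, the share was 76.8% without the filter, 88.3% without control 4 and 89.3% without iKO 1. It was 93.6% with DESeq2 and 95.7% to 100% under the others. Where 1 library was left in a group it was assumed to vary like the others. Groups of 2 libraries limit every value here.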

Other observations

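Malat1, a nuclear long non-coding RNA, and transcripts of the mitochondrial genome were named after their values were seen. Malat1 was at 484 and 521 CPM in controls 5 and 6 and at 795 and 677 CPM in iKO 5 and 6, with a log2 fold change of -0.04 in replicates 1 to 4. The mitochondrial mt-Nd6 was at 894 and 836 CPM against 603 and 533 CPM, and mt-Nd1 at 3923 and 3912 CPM against 3139 and 3101 CPM. The 37 mitochondrial genes held 2.74% and 2.99% of counts in controls 5 and 6 and 2.36% and 2.29% in iKO 5 and 6, where tamoxifen-injected controls 1 to 4 held 2.95% to 3.52% and iKO 1 to 4 held 2.34% to 3.89%. Estrogen response genes were apart below in 9 of 15 and above in 2, with 0 called, and interferon response genes apart below in 5 of 20, with 17 of 20 negative and 0 called, where 19.5% of all tested genes were apart below. Of 5 measured spinal cord genes 2 were apart above, where 18.4% of all tested genes were.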
